A study of Caenorhabditis elegans with 32 samples.

Results

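The acetylation of histone H3 at lysine 27 (H3K27ac) was mapped in wild-type (WT, N2 Bristol) Caenorhabditis elegans early embryos at 20 °C, the unperturbed state against which the mutant and heat-shocked embryos of the series were set. The map rests on 6 of the 32 samples of the series, which are 3 ChIP (IP) libraries and the 3 input libraries of the same replicate numbers, and all other H3K27ac groups were left out. Input is chromatin sequenced without immunoprecipitation. The worms carried no mutation or transgene and had grown 60 to 65 h from synchronized first-stage larvae, and the embryos had not passed the bean stage. Each library was made from pooled whole embryos, so fewer cells that carry the mark and less mark per cell cannot be told apart. One label field speaks of 2 independent replicates and another of 3, and 3 libraries of each kind were analysed.

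H3K27ac is laid down by acetyltransferases of the CBP/p300 family, CBP-1 in the worm, and is known as a mark of active promoters and enhancers, where it neutralizes a charge on the histone tail and is bound by bromodomain proteins. Worm autosomes have a gene-dense center with many conserved, widely expressed genes, and arms that are rich in repeats, carry more H3K9 methylation and contact the nuclear envelope. The X chromosome differs from the autosomes in both respects. It is poor in genes expressed in the germline, and in hermaphrodite embryos the dosage compensation complex lowers the transcription of both X copies.

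The IP libraries held 21361728, 19327992 and 26141674 reads and the input libraries 16899918, 20680726 and 23411210, counted in 500-bp windows of the genome build ce10. The mitochondrial genome took between 0.651% and 1.16% of IP reads and between 1.48% and 2.40% of input reads. Of 200551 windows on the 6 nuclear chromosomes, 195926 had a mean scaled input of at least 10 reads and were analysed. In these the median window held between 81 and 119 reads per library, 0 windows lacked input reads in any replicate, and at most 15 lacked IP reads.

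The level of H3K27ac in a window was taken as the log2 ratio of scaled IP to scaled input reads, each with a pseudocount of 2. Most windows lay slightly below 0. The median was −0.30 in replicate 1, −0.23 in replicate 2 and −0.20 in replicate 3. The upper tail was long. The top 1% of windows began at 2.00, 1.88 and 1.73, and the highest single window reached 3.31, 3.47 and 3.23. Replicate 1 had the widest distribution (SD over windows 0.68) and replicate 3 the narrowest (0.58). A ratio of at least 1, a 2-fold excess over input, was reached by 14078 windows (7.19%) in replicate 1, 12581 (6.42%) in replicate 2 and 10610 (5.42%) in replicate 3.

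The replicates placed the mark alike. Across the 195926 windows, which share the genome's base composition and mappability, the log2 ratios of 2 replicates had a Pearson r between 0.690 and 0.756 and a Spearman rho between 0.540 and 0.602. The scaled IP counts alone correlated with r between 0.860 and 0.896 and the input counts with r between 0.753 and 0.780. Averaging over neighbouring windows raised the agreement of the ratios, to r between 0.841 and 0.876 in bins of 2 kb, 0.931 to 0.940 in bins of 10 kb and 0.964 to 0.976 in 1005 bins of 100 kb. Replicates 1 and 2 shared 10155 windows of at least 1, which were 72.1% of those of replicate 1 and 80.7% of those of replicate 2. Replicates 1 and 3 shared 9420 (66.9% and 88.8% of their lists), and replicates 2 and 3 shared 8732 (69.4% and 82.3%).

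Windows missed by a replicate were mostly above input in it as well. Of the windows analysed, 8242 reached 1 in all 3 pairs, 3581 in 2 pairs and 5381 in a single pair. Among windows that 2 pairs reached and the other missed, replicate 3 was the one that missed 1913 (53.4%), replicate 2 missed 1178 and replicate 1 missed 490. In the replicate that missed, their median ratio was 0.84 to 0.85, and 99.5% to 99.8% of them were above 0. Among windows reached in a single pair, 2745 (51.0%) came from replicate 1, 1936 from replicate 2 and 700 from replicate 3. Those of replicate 1 lay on X more often (20.4%) than those of replicates 2 and 3 (11.4% and 12.0%), against 17.8% of all windows analysed.

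An enriched window was one that reached 1 in at least 2 of the 3 pairs. There were 11823, or 6.03% of windows and 5.91 Mb. The threshold has no gap around it: 1643 enriched windows had a deciding ratio within 0.1 above it, and 1771 other windows within 0.1 below it. The window nearest inside, chrIV:517842-518341, had ratios of 1.00, 1.06 and 0.28, and the window nearest outside, chrV:12970921-12971420, had 0.97, 1.17 and 1.00.

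A test on counts was run beside this rule. With edgeR's quasi-likelihood fit and library totals as library sizes, 22617 of the 195926 windows were higher in IP than in input at a Benjamini-Hochberg adjusted p under 0.01 (11.5% of windows tested), and 29235 were lower (14.9%). The count of lower windows depended on the scaling, because the median window had a log2 fold change of −0.28. With TMM normalization, which moved that median to −0.06, 29889 windows were higher and 4872 lower, and with DESeq2 and its size factors 27050 were higher and 2380 lower. Without replicate 1, 2 or 3 the lower windows numbered 6438, 16219 and 16691. Of windows called, those higher in IP made up 43.6% with library totals, 86.0% with TMM and 91.9% with DESeq2. Of the 11823 enriched windows 11804 were among those higher in IP, which the rule itself nearly fixes since it used the same libraries. A map made of the 11997 windows that edgeR called higher with a log2 fold change of at least 1 shared 11246 windows with the map described here (95.1% of it).

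A measure the rule did not use was had by choosing windows in 2 replicates and reading the level in the third. The 8732 to 10155 windows chosen in this way had a median log2 ratio in the left-out replicate of 1.51 ± 0.16 (SD, n = 3 replicates left out in turn), against −0.28 ± 0.05 in the remaining windows. In the left-out replicate 87.7% ± 6.62 of them reached 1 and 99.9% ± 0.0435 were above 0. Among the other windows 2.24% ± 0.925 reached 1. Of the left-out replicate's own reads, 15.3% ± 0.510 of IP reads and 5.18% ± 0.355 of input reads fell in these windows. With the full map the enriched windows took 20.0%, 18.1% and 16.8% of the IP reads of replicates 1, 2 and 3, and 6.46%, 6.32% and 6.38% of the input reads.

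Joining adjacent enriched windows gave 3937 regions. Most were narrow. A single window made up 999 of them (25.4%), 1028 spanned 1000 bp, 926 spanned 1500 bp, and the median was 1000 bp. The counts fell steeply beyond 1500 bp: 408 regions were 2000 bp wide, 204 were 2500 bp wide and 123 were 3000 bp wide. The 249 regions of at least 7 windows (6.32%) held 13.9% of enriched windows in the class of 7 to 12 windows and 8.09% in the class of 13 or more, which had 54 members. Single windows, by contrast, held 8.45% of enriched windows. In 2964 regions at least 1 window reached the threshold in all 3 replicates.

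**Figure D1:**
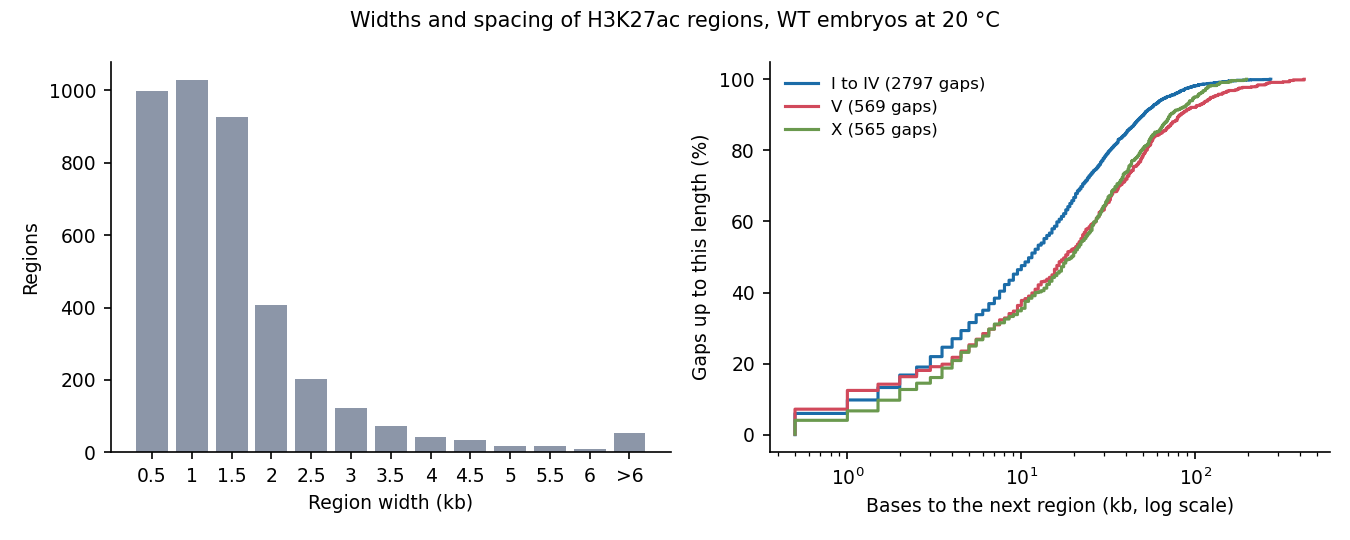
Left, the number of H3K27ac regions of each width (kb, all regions over 6 kb in the last bar). Right, the cumulative percent of gaps between neighbouring regions up to a given length (kb, log scale) for chromosomes I to IV, V and X. Most regions are 0.5 to 1.5 kb wide, and the curves of V and X lie to the right of that of I to IV, with median gaps of 18000 and 19500 bp. The longest gap, 422998 bp, is on V.

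Wider regions were also more strongly marked. With regions drawn from 2 replicates, the mean log2 ratio in the left-out replicate was 1.18 ± 0.19 (SD, n = 3) in single windows, 1.47 ± 0.16 in regions of 2 to 3 windows, 1.63 ± 0.15 in those of 4 to 6, 1.65 ± 0.16 in those of 7 to 12 and 1.75 ± 0.13 in those of 13 or more. Single windows reached 1 in the left-out replicate in 67.7% ± 15.8 of cases, from 53.1% in replicate 3 to 84.4% in replicate 1, and were thus the least repeatable class. Windows of regions of 13 or more reached it in 94.6% ± 2.79.

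The level rose inward from the edges of wide regions and fell off over short flanks. An edge was drawn where the other 2 replicates no longer both reached 1. Because replicates correlate, a lower level at and beyond it in the left-out replicate follows in part from that rule. Inside regions only the windows nearest the edge were read, and only in regions of at least 6 windows. In regions of at least 6 windows, the left-out replicate had a mean ratio of 1.35 ± 0.13 in the outermost window, 1.68 ± 0.16 in the next and 1.81 ± 0.16 in the one after. Outside regions of at least 2 windows it was 0.77 ± 0.11 in the first window, 0.32 ± 0.05 at 1000 bp, 0.16 ± 0.03 at 1500 bp and 0.09 ± 0.02 at 2000 bp. It was near 0 at 3500 bp and −0.14 ± 0.01 at 10000 bp. Between 2 different replicates, the correlation of ratios along the chromosome was 0.67 at a lag of 500 bp, 0.41 at 2000 bp, 0.24 at 5000 bp, 0.14 at 10000 bp and 0.04 at 100000 bp.

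**Figure D2:**
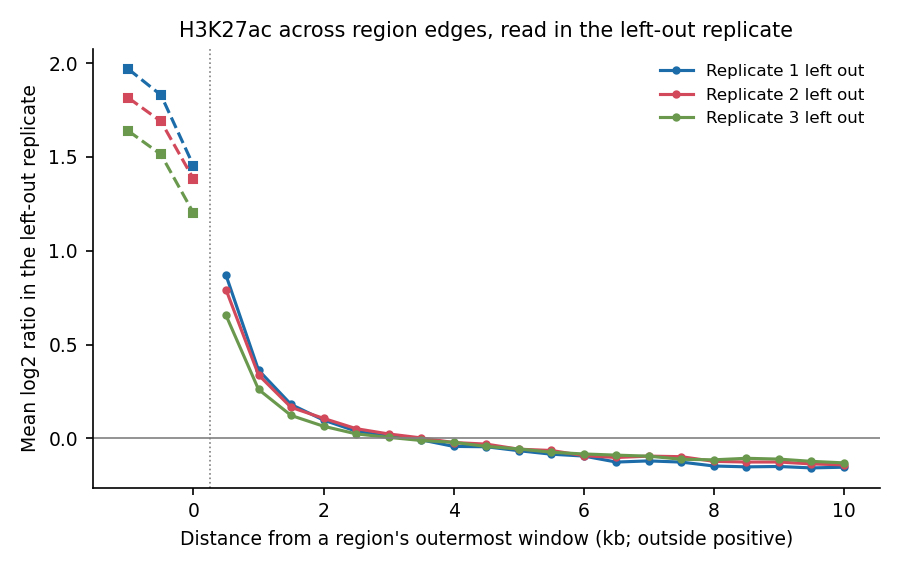
Mean log2 ratio of IP to input (y axis) in the replicate that was not used to draw the regions, by distance from a region's outermost window (x axis, kb). Dashed lines with squares are windows inside regions of at least 6 windows, solid lines are windows outside regions of at least 2 windows, the dotted line is the region's edge, and each colour is 1 left-out replicate. All 3 replicates fall from 1.64 to 1.97 at the third window inside to 0.66 to 0.87 in the first window outside.

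The 5 widest regions lay on 5 different chromosomes, all of them in an arm, and arms held 66.4% of analysed autosomal windows. As a class, wide regions were about as frequent in centers. Those of at least 13 windows made up 1.42% of regions in autosomal arms (29 of 2046) and 1.43% in centers (19 of 1325). The widest, chrI:2825989-2845988, spanned 40 windows and 20000 bp. It held 12718, 12082 and 14276 IP reads against 3480, 4320 and 4963 input reads in replicates 1 to 3, and its mean log2 ratios were 1.49, 1.55 and 1.32. The next, chrV:1567470-1582468, had mean ratios of 1.61, 1.56 and 1.41. On chromosome III the region chrIII:2155094-2169593, 14500 bp wide, had 1.61, 2.04 and 1.66. A region of the same width on X, chrX:12170685-12185184, had 1.68 in replicate 1 and 1.29 in replicates 2 and 3. The last of them, chrIV:16396774-16409773, had 1.42, 1.54 and 1.35. Every replicate was above 1 in each of these regions, but they were not the highest: among the 2938 regions of at least 2 windows, the widest ranked 1335 by its mean ratio.

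The 5 highest regions of at least 2 windows were 1000 to 3500 bp wide. The first in rank, chrII:11758963-11759962, spanned 2 windows and held 649, 435 and 580 IP reads over 81, 98 and 80 input reads, with mean log2 ratios of 2.61, 2.24 and 2.63. It was followed by chrI:12507948-12508947 (2.50, 2.30 and 2.22) and by chrIII:2946591-2948590 (2.11, 2.66 and 2.20). The next regions in rank were wider, 3500 bp each. In chrIII:9052065-9055564 the IP libraries held 4588, 4186 and 5044 reads and the inputs 727, 767 and 962, and in chrII:14403452-14406951 they held 4395, 4321 and 4952 against 721, 776 and 906. The highest region of chromosome IV was chrIV:2387834-2390333 (2.14, 2.44 and 2.06) and that of V was chrV:15001412-15003411 (2.31, 2.24 and 2.03). The highest region of X, chrX:5993712-5997211, had 1.93, 2.00 and 1.87 and ranked 85 of all. In all of these regions the scaled IP exceeded the scaled input more than 3-fold in each replicate, and the spread between replicates was between 0.07 and 0.29 (SD). No genes are named for these regions because an annotation of ce10 was not used here.

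Regions were spaced unevenly. The median gap between neighbours was 13000 bp, the middle 50% of gaps ran from 4000 to 31000 bp, and 5% were longer than 82000 bp. The SD of gap lengths was 1.37 times their mean. At the short end 232 gaps (5.90%) were a single window and 16.2% at most 2 kb, and at the long end 124 gaps were longer than 100 kb. Of the windows analysed, 55.1% lay in a region or within 10 kb of one, and 6.10% lay more than 50 kb from any. Among 993 bins of 100 kb with at least 150 analysed windows, the median bin held 10 enriched windows. The densest, chrI:2800489-2900488, held 61 of 200, 40 of them in the widest region. It was followed by chrI:9900459-10000458 with 53 and by chrIII:2100094-2200093 with 52, which contained the third widest region.

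At the other end, 57 bins held no enriched window. Of these 54 lay in an arm, and arms held 66.4% of analysed autosomal windows. Of the empty bins 35 lay on chromosome V, with 20.6% of analysed windows, and 4 on X, with 17.8%. The 3 with the lowest mean ratio were neighbours or near neighbours on the right arm of V, chrV:17400402-17500400 (−0.93, −0.78 and −0.64 in replicates 1 to 3), chrV:17100403-17200401 (−0.88, −0.67 and −0.66) and chrV:17000403-17100402 (−0.84, −0.75 and −0.59). The longest stretch without an enriched window, 423 kb, was also there, at chrV:18110399-18533396. Elsewhere the longest stretches were 271 kb on IV (chrIV:15040280-15311778), 208 kb on III (chrIII:1208598-1417096), 197 kb on X (chrX:1603731-1800729), 195 kb on I (chrI:12230949-12426447) and 188 kb on II (chrII:1863006-2051004). All 6 stretches lay in an arm. Their mean ratios were negative in every replicate, from −0.30 to −0.73, and between 312 and 821 of their windows passed the input minimum, so they were not stretches without reads.

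The chromosomes differed in how much of them was marked. Chromosome I had 8.34% of its windows enriched and III 8.12%, followed by II with 6.75%, IV with 5.68%, X with 4.77% and V with 3.82%. Regions per Mb followed the same order, with 51.9 on I, 51.4 on III, 42.6 on II, 37.7 on IV, 31.9 on X and 27.2 on V. In each replicate alone, I and III had the largest share of windows of at least 1 and V the smallest. On chromosome I the share was 9.65%, 8.74% and 7.49% in replicates 1, 2 and 3, and on V it was 4.59%, 4.14% and 3.34%. The highest replicate of V was below the lowest of I, II, III and IV. Windows called higher in IP by edgeR, 11.5% over all chromosomes, were 15.3% on I, 15.2% on III, 12.6% on II, 10.9% on IV, 9.83% on X and 7.57% on V.

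**Figure D3:**
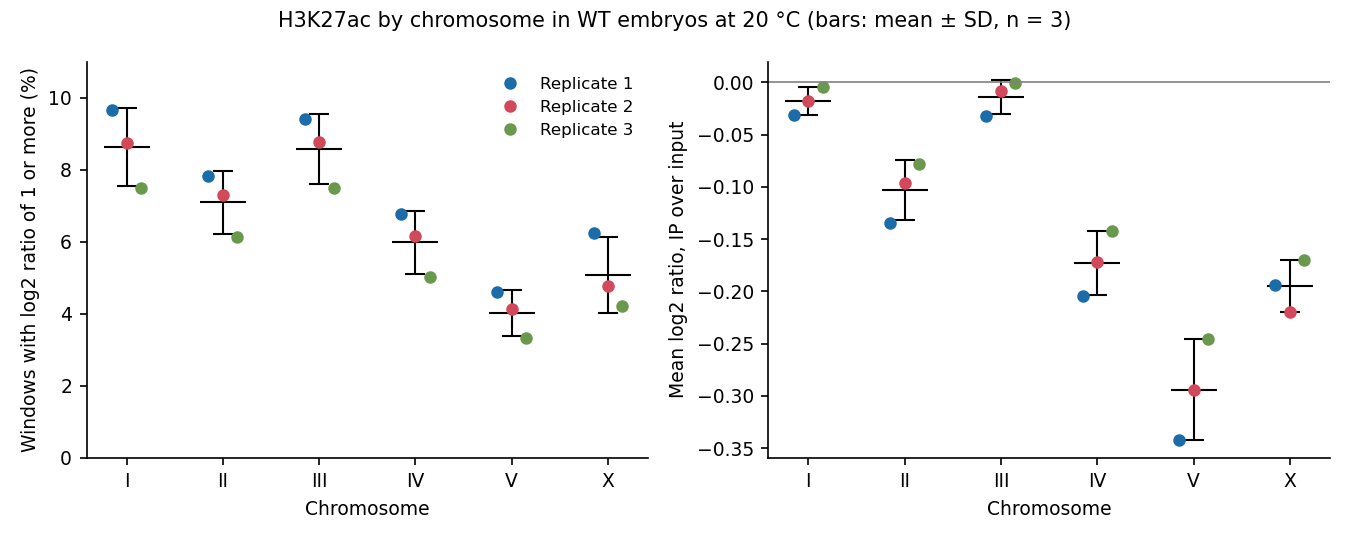
Left, percent of analysed windows that reached a log2 ratio of 1 on each chromosome. Right, mean log2 ratio of IP to input over all analysed windows. Coloured points are the 3 replicates, and bars are mean ± SD. V is lowest in both plots, with a mean ratio from −0.34 to −0.25, and I and III are highest. X lies near IV in the right plot and below IV in each replicate in the left plot.

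The mean log2 ratio over all windows ranked the chromosomes alike. It was −0.02 ± 0.01 (SD, n = 3) on I, −0.01 ± 0.02 on III, −0.10 ± 0.03 on II, −0.17 ± 0.03 on IV, −0.19 ± 0.03 on X and −0.29 ± 0.05 on V. Chromosomes I and III did not differ beyond their spread, and neither did IV and X, whose order changed between replicate 1 and the others. In windows chosen from the other 2 replicates, the left-out replicate had a mean from 1.46 ± 0.20 on X to 1.57 ± 0.14 on III. Within each replicate III was the highest chromosome, with 1.70, 1.56 and 1.43 in replicates 1 to 3. X had 1.68, 1.40 and 1.31 and was the lowest in replicates 2 and 3 but not in replicate 1.

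Shares of reads gave a comparison at the level of libraries. Chromosome III took 15.7%, 15.7% and 15.4% of nuclear IP reads against 14.1%, 14.0% and 14.0% of input reads, a ratio of 1.11, and chromosome I had a ratio of 1.09. II was also higher in IP, with 15.8% ± 0.0935 against 15.3% ± 0.00662. IV was lower, with 16.8% ± 0.0949 against 17.2% ± 0.00410, and V was lowest, with 17.6% ± 0.360 against 19.8% ± 0.0525. IP and input did not overlap for any chromosome. By an exact permutation test, two-sided, p was 0.1 for each of the 6 chromosomes and for the share of arms, and 0.1 after Benjamini-Hochberg adjustment over the 7 tests, which is the smallest p that 3 against 3 libraries allow.

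X carried fewer marked windows than the autosomes but of much the same shape. It had 566 regions, a median gap of 19500 bp against 12000 bp on autosomes, and 4.77% of windows enriched against 6.31%. The median width was 1000 bp on both, and regions of at least 7 windows made up 6.36% on X (36 of 566) and 6.32% on autosomes. X took 17.4%, 16.7% and 17.1% of nuclear IP reads and 18.0% of reads in each input, a difference of −0.926 percentage points. Input reads per analysed window were 1.01 times as many on X as on autosomes in each replicate.

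The mean log2 ratio of X was below that of the autosomes by 0.03, 0.09 and 0.06 in replicates 1, 2 and 3, a difference of −0.06 ± 0.03 (SD, n = 3) with the same sign in 3 of 3 replicates. Set against single autosomes, X was below I by 0.18 ± 0.02, below III by 0.18 ± 0.03 and below II by 0.09 ± 0.03. Its difference from IV was −0.02 ± 0.03 and changed sign between replicates, and it was above V by 0.10 ± 0.04. Without V among the autosomes the difference of X was −0.11 ± 0.03. The average over autosomes therefore included a chromosome that was lower than X in every replicate.

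Relative to autosomes, the strongest windows were scarcer on X than enriched windows in general. The share of windows past a given level on X was divided by that on autosomes. This ratio was 0.81 ± 0.08 at a level of 0.5, 0.76 ± 0.07 at 1, 0.68 ± 0.12 at 1.5 and 0.41 ± 0.20 at 2. At 2 it was 0.64, 0.30 and 0.28 in replicates 1 to 3, so replicate 1 stood apart from the others, as it did at each lower level. In 2 pairs or more, 72 windows of X reached 2, which was 2.06 in 1000 against 6.27 in 1000 on autosomes and 3.07 in 1000 on V. They were 4.32% of enriched windows on X and 9.93% on autosomes. Their scaled input had a median of 109 reads per window, against 114 in those of the autosomes. With the 2 other replicates used for the choice, the left-out replicate had a median of 2.08 ± 0.26 in such windows on X and 2.19 ± 0.18 on autosomes. The medians of X were 2.37, 1.97 and 1.89 in replicates 1 to 3 and those of autosomes 2.34, 2.24 and 1.99, so replicate 1 had the opposite order.

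**Figure D4:**
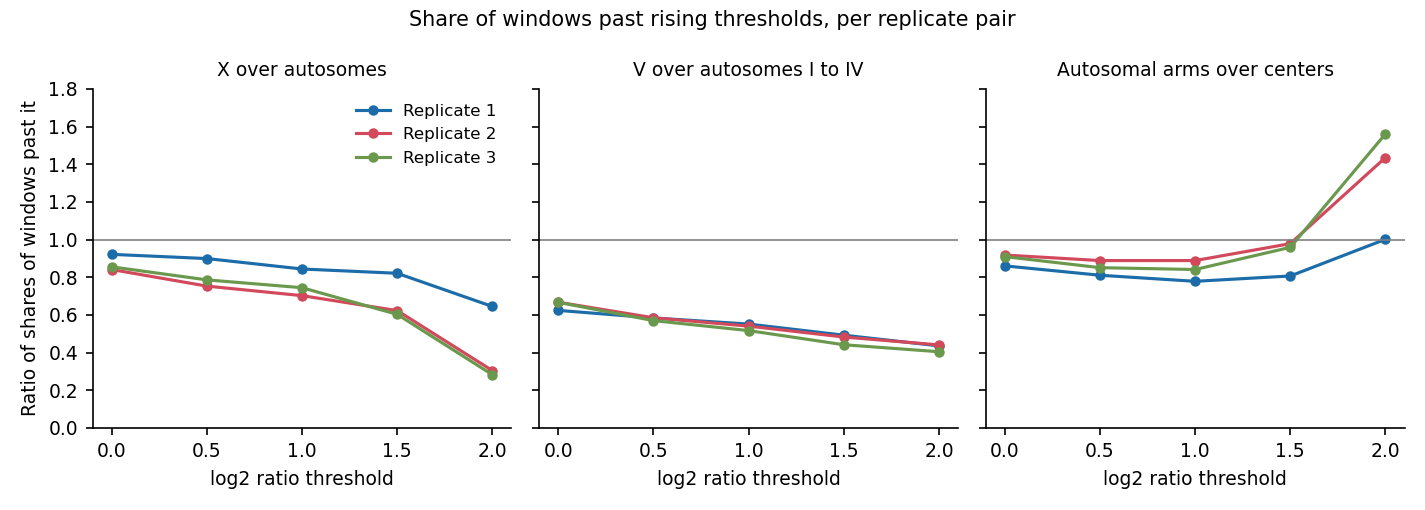
Ratio of the share of windows past a log2 ratio threshold (x axis) between X and autosomes, V and autosomes I to IV, and autosomal arms and centers. Each line is 1 replicate pair, and the grey line is a ratio of 1. X falls to 0.64, 0.30 and 0.28 at a threshold of 2, V falls from 0.65 to 0.43 on average with replicates close together, and arms pass from below 1 to between 1.00 and 1.56.

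Chromosome V was low at every level. Its share of windows relative to chromosomes I to IV was 0.58 ± 0.01 at 0.5, 0.54 ± 0.02 at 1 and 0.43 ± 0.02 at 2, and the replicates lay close together. Its mean ratio was below that of the other autosomes by 0.21 ± 0.03. It had fewer wide regions, 23 of 570 (4.04%) against 190 of 2801 (6.78%) on I to IV, and more single windows (30.4% against 24.0%). The median gap was 18000 bp, and 45 gaps were longer than 100 kb, against 5 to 24 on each of the other autosomes. Input reads per window on V were 0.946 to 0.953 times those of the other autosomes. Whether lower coverage has a part in the level of V was not tested.

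Each chromosome was cut into 3 parts of equal length, the center and an arm on either side. On each autosome the center was marked more often than the arms. Centers had 48.2 regions per Mb and 7.13% of windows enriched, and arms had 37.2 per Mb and 5.89%. The median gap was 11500 bp in centers and 12500 bp in arms, and the long gaps were in arms, with 80 over 100 kb against 15. Of analysed windows, 9.11% in arms and 1.42% in centers lay more than 50 kb from a region. The mean log2 ratio of arms was below that of centers by 0.10, 0.06 and 0.06 in replicates 1 to 3. It was below on each of the 5 autosomes in each replicate, by means from 0.05 on III to 0.11 on V. X had the same direction, with arms lower by 0.05 ± 0.01. These differences pool both arms, and not every single arm had them. The left arm of IV had −0.17, −0.12 and −0.11, against −0.14, −0.14 and −0.10 in its center, and was higher in replicate 2. On X the left arm had 5.11% of windows enriched and the center 5.14%. Arms took 63.2% ± 0.549 of autosomal IP reads and 64.3% ± 0.0850 of autosomal input reads, without overlap. The exact permutation p was 0.1, the smallest possible. With mitochondrial reads kept in the total the difference was −0.310 points in place of −1.13, and the exact permutation p was 0.5. Input reads per window in arms were 0.909 to 0.915 times those in centers, and the part of this difference in the result was not tested.

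**Figure D5:**
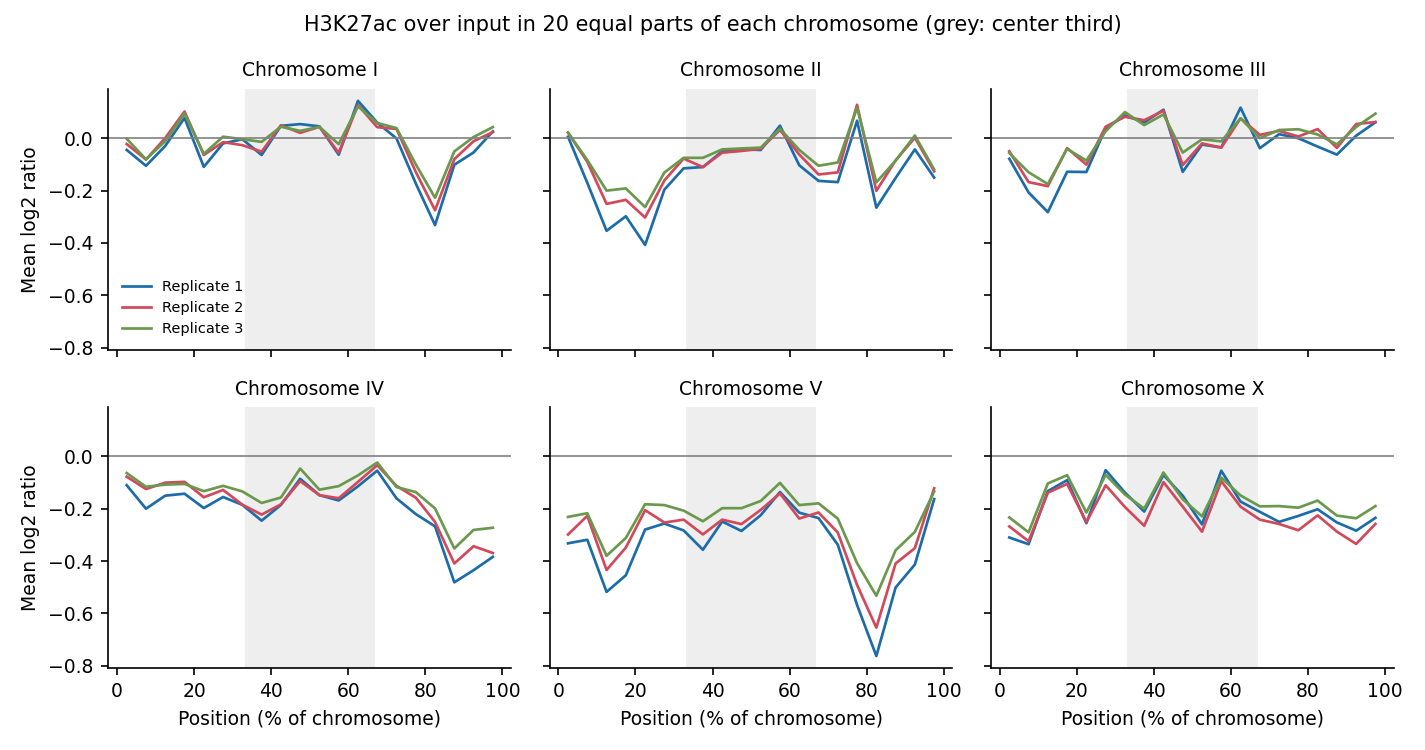
Mean log2 ratio of IP to input (y axis) in 20 equal parts of each chromosome (x axis, percent of its length), 1 line per replicate, with the center in grey. The 3 replicates follow each other, and the lowest values are on the right arm of V, where part 17 of 20 is at −0.76, −0.65 and −0.53.

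The pattern was not a simple fall from center to end. On all 6 chromosomes the lowest of 20 equal parts lay inside an arm and not at a tip. On V, parts 15, 16, 17 and 18 had mean ratios of −0.29, −0.49, −0.65 and −0.42, and the last part, at the tip, had −0.14 ± 0.02. In part 17 of V 0.599% of windows were enriched. The corresponding low part of I was also part 17 (−0.28 ± 0.05, 3.34% enriched), that of II was part 5 (−0.32 ± 0.07, 3.10%) and that of IV was part 18 (−0.41 ± 0.06, 2.77%). The arms of 1 chromosome differed from each other in every replicate. The left arm was above the right by 0.12 ± 0.02 on IV, 0.08 ± 0.01 on V and 0.05 ± 0.01 on I, and below it by 0.08 ± 0.01 on II and 0.08 ± 0.01 on III. The right arm of V was the lowest of the arms and centers, with a mean of −0.37 ± 0.06 and 20.2 regions per Mb, and the center of III had the most regions, 63.3 per Mb.

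Arms held fewer regions per Mb, but their share of the strongest windows was not lower. The ratio of arms to centers in the share of windows was 0.84 ± 0.06 at a log2 ratio of 1, 0.91 ± 0.09 at 1.5 and 1.33 ± 0.29 at 2. At 2 it was 1.00, 1.44 and 1.56 in replicates 1, 2 and 3, so that replicate 1 did not show an excess. Windows that reached 2 in at least 2 pairs numbered 747 in arms (6.99 in 1000) and 262 in centers (4.84 in 1000), which was 11.9% and 6.79% of their enriched windows. Their median scaled input was 112 reads in arms and 120 in centers, close to the medians of all windows there (105 and 115). Their median scaled IP was 511 and 530 reads. In the left-out replicate such windows had a median of 2.21 ± 0.17 in arms and 2.15 ± 0.17 in centers. Mean region width was 1539 bp in arms and 1456 bp in centers.

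Windows with a 2-fold deficit of IP were scattered. A ratio of −1 or less in at least 2 pairs was found in 3390 windows (1.73%), called depleted. These ratios used library totals, by which the median window lay at −0.30, −0.23 and −0.20 in replicates 1 to 3. Depleted windows were not recounted with another scaling. The 3390 windows formed 2996 runs, of which 88.5% were a single window, and the longest was 2500 bp. V held 36.7% of the 3390 windows, against 20.6% of analysed windows. Its right arm held 713, with 6.90% of analysed windows. Of the depleted windows on autosomes 81.9% lay in arms, where 66.4% of analysed autosomal windows and 62.0% of enriched autosomal windows lay. Their median scaled input was 106 reads, similar to the 108 of windows that were neither enriched nor depleted, whereas their median scaled IP was 53.0 against 86.2. Enriched windows had 308 IP and 115 input reads.

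H3K9me2, a mark of silenced chromatin, had been profiled in WT early embryos at 20 °C in a separate experiment with 2 replicates, and was read over the same windows. Its replicate 1 rested on an input of 9928436 reads, of which 32.8% were mitochondrial, and nuclear totals were used for scaling. The median H3K9me2 log2 ratio was −0.16 in enriched windows, −0.93 in windows neither enriched nor depleted and −0.63 in depleted windows in replicate 1. In replicate 2 the 3 medians were −0.18, −0.28 and 0.03. By these medians H3K9me2 was higher in enriched windows than in the middle class in both replicates, and lower than in depleted windows in replicate 2 only. In autosomal arms the medians of enriched and middle-class windows were 0.06 and −0.42 in replicate 1 but −0.0037 and −0.00052 in replicate 2. In autosomal centers they were −0.65 and −1.75 in replicate 1 and −0.41 and −0.56 in replicate 2. An H3K9me2 ratio of at least 1 in both replicates was found in 494 enriched windows (4.18%), in 5.49% of windows of the middle class and in 339 depleted windows (10.0%). In autosomal arms the 3 shares were 7.14%, 9.40% and 12.9% (450, 9240 and 301 windows). In centers they were 0.700%, 0.420% and 0.774%, which rested on 27, 209 and only 4 windows. With 2 replicates that differed in depth and in median, these values are given without a test.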

How the data were processed

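H3K27ac ChIP-seq libraries from WT early embryos at 20 °C (3 IP, 3 input) were analysed. Paired-end reads were mapped to ce10 by the authors (bowtie, run by QuasR). They deposited unnormalized counts of uniquely mapping reads in windows of 500 bp. All totals are even, so each pair was counted by both mates, and counts of reads overstate the number of molecules. Depth is given with the results. A few windows are 499 bp wide. Samples were grouped by their labels, and IP and input of the same number formed a pair.

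Each library was scaled to the mean library size by its total, mitochondrial reads included, and log2 ratios used a pseudocount of 2. Enriched windows had a ratio of 1 or more in 2 or 3 pairs, and windows with under 10 scaled input reads on average were left out. Adjacent windows were joined. The MACS2 peaks of the study were not used. Spacing is the bases between neighbouring regions, and arms and center are 3 equal parts of a chromosome, whose ends were taken from the files.

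The test per window was that of edgeR 4.0.16 under R 4.3.3 (quasi-likelihood, Benjamini-Hochberg adjustment, adjusted p under 0.01). Alternatives used TMM and DESeq2 1.42.0. On simulated counts for this comparison, edgeR called 185 of 200 windows raised 2-fold, 200 of 200 raised 4-fold, 140 of 200 lowered to 0.5-fold and 6 of 195326 unchanged windows. The unchanged windows had a median log2 fold change of 0.00036 there, against −0.28 over the real windows. The simulation therefore cannot show errors that come from scaling, on which the count of lower windows depended. It left 195326 of 195926 windows unchanged, whereas 11.5% of real windows were called higher and 14.9% lower. Its counts were also drawn with the dispersion that the real fit had estimated. The shares called there need not hold for the real windows. Read shares were compared by exact permutation tests in scipy 1.17.1. Figures used matplotlib 3.10.9.

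The regions named are the 5 widest, the 5 highest and the highest of each chromosome among those of at least 2 windows, the longest stretch without an enriched window on each chromosome, and the 3 bins of 100 kb with most and with fewest enriched windows, ties among the fewest being ordered by mean ratio. The map, its rules and the comparisons were chosen with earlier results of these data known.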

Additional observations from a re-analysis of the deposited data

How the results depend on the processing

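The number of windows and regions followed the threshold. A log2 ratio of 0.5 gave 24020 windows in 6282 regions with a median width of 1500 bp and a median gap of 6500 bp, and 1.5 gave 4827 windows in 2181 regions with a median gap of 26500 bp. At 1.5 the share of enriched windows on X was 0.657 of that on autosomes (main 0.756) and that of arms 0.925 of that of centers (main 0.826), and with arms as the outer 25% at each end the latter was 0.750. Asking for 3 of 3 pairs gave a median gap of 17000 bp. Centring the ratios on their median gave a width of 1500 bp and a gap of 9500 bp. Joining regions 1 window apart gave 1500 and 14500 bp, and dropping single windows 1500 and 19999 bp. The median width was 1499 bp with the mean of the 3 pairs and 1500 bp with windows called by edgeR. Without 1 replicate the median gap was 14500 to 16000 bp. The differences of X from autosomes and of arms from centers kept their direction under each of these alternatives. Arms fell below centers in the share of windows past a level of 1 or 1.5 but not past 2, where the ratio was 1.33.

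The count of windows lower in IP was unstable: 59401 at an adjusted p under 0.05, 4872 with TMM, 2380 with DESeq2 and 6438 to 16691 without 1 replicate (6438 without replicate 1, 16219 without replicate 2, 16691 without replicate 3), against 29235. Windows higher in IP numbered 17130 to 29889 over the edgeR and DESeq2 alternatives. The arm share fell by 0.310 points with mitochondrial reads kept among the total (exact permutation p = 0.5), against 1.13 points.

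The study set each IP against its matched input, and the counts showed little of a shared deviation. Deviations from the group means correlated by 0.01 to 0.05 between libraries of the same number and −0.02 to 0.01 otherwise. Each library correlated best with its own number, but only replicate 1 stood apart (0.046). The IP of replicate 3 had 0.0111 with its own input and 0.0107 with that of replicate 2. A replicate block gave 23181 windows higher and 32867 lower, and exact sign-flip p = 0.25 for the shares of X (−0.926 points) and arms (−1.13 points), the smallest 3 pairs allow.

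Pairs of reads and 3 libraries per kind limit the precision, and single windows were the least repeatable.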
